A study of Homo sapiens with 3 samples.

Results

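Very long protein-coding genes were examined as sites of RNA capture by ribosomal protein RPL22 and its paralog RPL22L1. A gene was taken as very long when its span in the RefSeq table of GRCh38 reached 500000 bases, and a peak was given to the shortest gene that held its summit. Of 20046 protein-coding genes placed on chromosomes, 315 met this length. They held 5011 of 154000 peaks (3.25%) of the RPL22-HaloTag library and 7770 of 254413 peaks (3.05%) of the RPL22L1-HaloTag library. The 315 genes took up 262654 kb, which was 20.3% of the summed span of protein-coding genes, and held 4.08% and 3.74% of the peaks that fell in such genes. A gene was chosen by its length alone and not by its peaks, though earlier results of these data were known when this length was set.

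Genes of this size consist mostly of intron sequence, and an RNA polymerase needs hours to cross one. Many of them code for cell adhesion molecules, ion channels and receptors of neurons, and several lie at common fragile sites, where chromosomes break when replication is slowed. RPL22 belongs to the large ribosomal subunit and also binds structured RNA outside the ribosome, and its paralog RPL22L1 can take its place in the subunit.

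The cells were HCT116, an established line from a human colorectal carcinoma, grown in McCoy's 5A medium with fetal bovine serum. The groups were cells of genotype RPL22-HaloTag and of genotype RPL22L1-HaloTag with 1 library for either, and a library of cells with HaloTag only was not analysed here. GoldCLIP, the assay used, ties the HaloTag fusion covalently to beads after crosslinking so that bound RNA can be washed under denaturing conditions and sequenced. How the fusions were expressed, whether a line was 1 clone and whether the untagged proteins remained are not given in the labels. The lists of peaks are called the RPL22 list and the RPL22L1 list below. With 1 library per group there was no test between groups, and every interval is an exact Clopper-Pearson 95% interval that covers counting error only. Marker genes were read from the same lists. Of 10 colon epithelium markers 8 held an RPL22 summit and 7 an RPL22L1 summit, with none in KRT20 or LGR5 in either, and their medians were 13.6 and 18.7 summits per 100 kb of gene. The neuron markers had a summit in 7 of 8 genes in each list, with medians of 5.55 and 11 per 100 kb and none in NEFL, and 2 of them, SYT1 and RBFOX3, are very long genes. Fibroblast markers had one in 1 and 2 of 7 genes, and leukocyte markers in 2 and 2 of 7. For comparison, 66.4% of all protein-coding genes held an RPL22 summit and 68.1% an RPL22L1 summit. A peak does not measure the amount of RNA, and expression was not measured in these files.

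The bases under a peak could be read where it lay within a RefSeq promoter window, which runs from 250 bases before a start to 50 bases after it. This was so for 19 RPL22 peaks (0.379%) and 17 RPL22L1 peaks (0.219%), and 11 in each list lay in the window of the very long gene itself. The 8 sequences below show peaks of the usual width, 30 bases, for overlapping and for single peaks. In those of FAF1, GPHN, LRBA and DLG2 at chr11:85627422-85627451 the summit did not lie in the middle. They are written 5′ to 3′ on the strand of the host gene, taken from the GRCh38.p14 promoter tables, and capitals mark bases also covered by a peak of the other list. The peak lists give no strand, so the strand of the captured RNA is unknown.
FAF1, RPL22 list, chr1:50441438-50441467: AACCCTTTTCCTTGAAGCaaaagagtaaac
CDKAL1, RPL22L1 list, chr6:21231094-21231123: CAATGAACAGGAAAGCGACATCTCCATTCT
DLG2, RPL22 list, chr11:85627422-85627451: ccagtgtgaagaaatctgcttcgccaactc
DLG2, RPL22 list, chr11:85627556-85627585: acatgtctaatactactacggcgtctctga
GPHN, RPL22 list, chr14:66508157-66508186: cagtcctgccatctagctgccttgggtctc
KLF12, RPL22L1 list, chr13:74133929-74133958: aagtacaacagttccccgggttgcccccca
TASP1, RPL22L1 list, chr20:13638901-13638930: ctacttccggtgcagtgaaggctcggggct
LRBA, RPL22L1 list, chr4:150579055-150579084: tcaagtcttcagaccgattcatctgtattc
The FAF1 and CDKAL1 peaks lay in windows of other genes, FAF1-AS1 and LOC107986578, that start inside the very long gene, and the LRBA peak lay in that of LRBA-AS1. The FAF1 peak was met by an RPL22L1 peak at chr1:50441450-50441513, and the CDKAL1 peak lay wholly within an RPL22 peak at chr6:21231087-21231123. The other 5 lay in the window of the gene named and shared no base with a peak of the other list. An RPL22 peak at chr13:74133963-74133994 nevertheless lay close beside the KLF12 peak.

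Nearly every very long gene held a peak, but few peaks for its size. A summit was present in 294 of 315 genes in the RPL22 list, 93.3% (90.0 to 95.8%), and in 303 in the RPL22L1 list, 96.2% (93.4 to 98.0%). Over all protein-coding genes the shares were 66.4% and 68.1%, and in those of 200 to 500 kb 90.1% and 90.6%. The median gene had 0.579 RPL22 summits per 100 kb (quartiles 0.273 and 2.77) and 0.710 RPL22L1 summits (quartiles 0.346 and 3.89). Genes of 200 to 500 kb had medians of 3.44 and 4.64. Pooled over genes, density fell with each step in gene length, from 24.8 and 36.2 per 100 kb in genes under 10 kb to 5.86 and 9.51 in those of 200 to 500 kb and 1.91 and 2.96 in the very long genes. Stretches between genes, assembly gaps included, had 1.06 and 1.58.

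**Figure D1:**
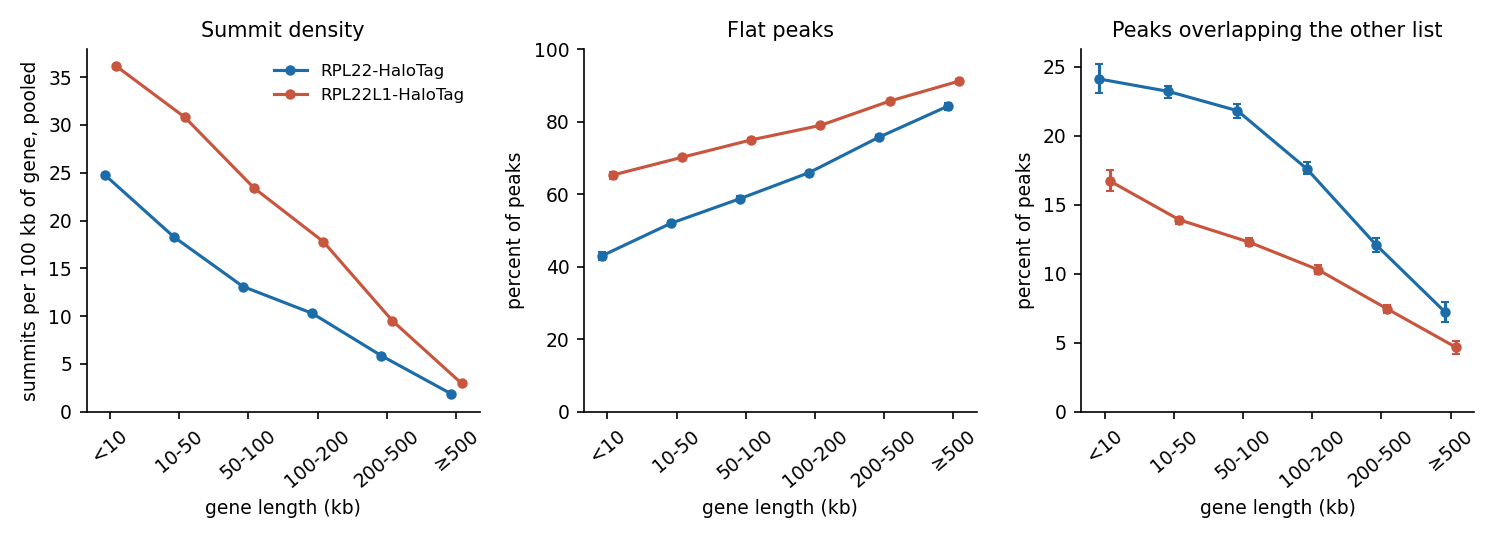
Peaks by length class of the protein-coding gene that held the summit, with gene length in kb on the horizontal axes. The left panel gives summits per 100 kb pooled over the genes, the middle panel the percent of peaks that were flat and the right panel the percent overlapping a peak of the other list, each with exact 95% intervals for the percentages. Genes of 500 kb or more had the lowest density (1.91 and 2.96), the highest flat share (84.3 and 91.2%) and the lowest overlap (7.22 and 4.66%) in the RPL22 and RPL22L1 lists.

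The very long genes were far from alike. Density was below 1 RPL22 summit per 100 kb in 196 genes and below 1 RPL22L1 summit in 184. It reached 2 per 100 kb in 92 genes (29.2%, 24.2 to 34.6%) and 105 genes (33.3%, 28.1 to 38.8%), against 58.3% and 61.6% of genes of 200 to 500 kb. Over all protein-coding genes the shares were 61.1% and 63.0%. Those are no like comparison, since in a short gene a single summit already reaches this limit. The 92 and 105 dense very long genes held 80.6% and 86.9% of the summits in very long genes. The limit of 2 was chosen after the values were seen. The lists named much the same genes, since 91 were dense in both, 1 by RPL22 summits only and 14 by RPL22L1 summits only. Spearman's rho of density between lists was 0.85 over the 315 genes, which differ in length and own bases, and that of density with gene length was -0.20 and -0.14. The 106 genes dense in either list had pooled densities of 5.43 and 8.71, and the other 209 had 0.430 and 0.545, a split that the limit itself makes.

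**Figure D2:**
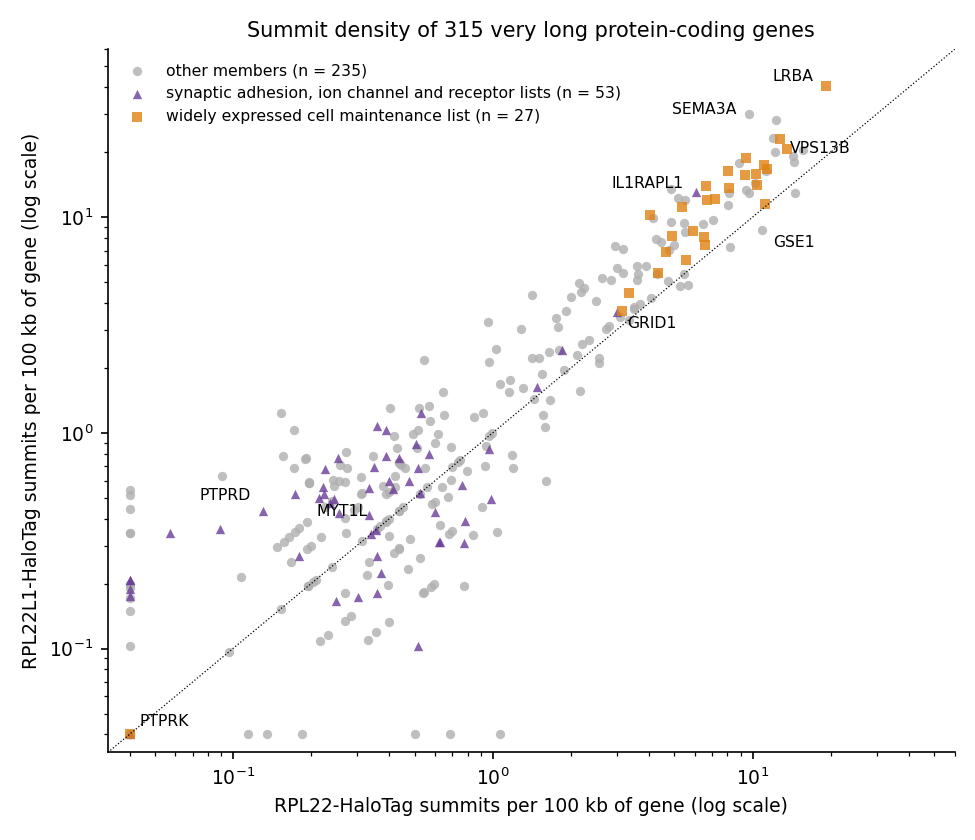
Summits per 100 kb in each of the 315 very long genes, RPL22 list on the horizontal and RPL22L1 list on the vertical axis, both logarithmic, with genes without a summit drawn at the lower edge and the dotted line marking equal values. Genes of the widely expressed list (squares) lie at the upper right, LRBA highest at 19.2 and 40.7, and PTPRK is the one square at 0 in both lists, whereas most synaptic, channel and receptor genes (triangles) lie below 1.

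Genes grouped by function differed in density. The 27 very long genes listed as widely expressed genes of cell maintenance were dense in 26 cases in each list, with medians of 6.69 and 12 summits per 100 kb. Of 35 genes of synaptic adhesion and axon guidance, 1 was dense in RPL22 summits and 2 in RPL22L1 summits, with medians of 0.339 and 0.427. Of 18 ion channel and transmitter receptor genes 1 was dense in each list, with medians of 0.405 and 0.538. The median gene lengths of these lists were 698, 1112 and 780 kb. All the lists were drawn up from general knowledge with earlier results of these data known, so the counts are no independent evidence of a difference, and expression in these cells was not measured here. The synaptic list does not hold every such gene, and dense ones outside it are given below. With flat peaks left out the widely expressed genes at this limit fell to 3 and 4. A peak that was not flat was still listed in 26 of these 27 genes for RPL22 and 25 for RPL22L1, against 9 and 10 of the 35 synaptic genes and 143 and 149 of all 315. The widely expressed genes also held more summits of any kind, 1483 and 2437 against 221 and 366. Of those summits 18.1% and 8.49% were not flat, against 11.3% and 5.46% in the synaptic genes and 15.7% and 8.80% in all very long genes.

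LRBA, a large scaffold protein of vesicle traffic (chr4:150264435-151015727), held the most summits in both lists, 144 and 306, or 19.2 and 40.7 per 100 kb. It also had the most peaks that were not flat, 49 and 54. VPS13B on chromosome 8, a lipid transfer protein of the Golgi, held 110 and 200 summits. The Fas-associated factor FAF1, which binds ubiquitin, had 71 and 109, and SMYD3, a methyltransferase, 71 and 119. IMMP2L, which codes for a peptidase of the inner mitochondrial membrane and lies at a fragile site, had 73 and 123. The exception among the widely expressed genes was PTPRK, a receptor tyrosine phosphatase of 552 kb, with no summit anywhere within its bounds in either list.

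Signalling, junction and transcription genes were divided. In the list of kinase and cyclic nucleotide signalling 7 of 22 genes (31.8%) were dense in each list, near the 29.2% and 33.3% of all very long genes, led by DOCK1, an activator of Rac, with 86 and 112 summits. PDE4B, which breaks down cyclic AMP, had 30 and 71. Among junction and polarity scaffolds 3 and 4 of 21 were dense, including MAGI1, a scaffold of tight junctions, with 98 and 131 summits and the polarity protein PARD3 with 86 and 141. Among transcription and chromatin regulators 8 and 9 of 17 were dense, or 5 and 6 of 14 without the 3 that also stand in the widely expressed list, and the zinc finger repressor ZBTB20 led them with 100 and 194 summits. INPP4B, a phosphoinositide phosphatase in none of the lists, had 101 and 232.

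Fragile site genes were dense about as often as all very long genes. All 25 had a summit in both lists, against 93.3% and 96.2% of all very long genes. In each list 7 were dense, 28.0%, against 29.2% and 33.3%. Their medians of 0.584 and 0.597 lay near those of all very long genes, 0.579 and 0.710. Without the 3 that also stand in the widely expressed list 4 of 22 were dense in each. Of 8 genes of the dystrophin complex and glypicans only the dystrophin relative utrophin, UTRN, was dense, with 58 and 82 summits. Of 7 genes for RNA-binding proteins only IMMP2L was, whose place in that list goes against its mitochondrial role. RBFOX1, a splicing regulator of 2474 kb, had 6 and 15 summits.

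Genes known from the nervous system stood among the dense ones, inside and outside the lists. IL1RAPL1, an adhesion molecule of synapses, held 83 and 180 summits, or 6.06 and 13.1 per 100 kb, and the teneurin TENM3 held 25 and 33, or 1.84 and 2.43. The delta glutamate receptor gene GRID1 had 23 and 28. SEMA3A, a secreted repellent of axons that was in none of the lists, had 52 and 161, and SYT1, the calcium sensor of synaptic vesicles and a neuron marker, 52 and 105. Further dense genes outside the lists were SHANK2 and DLGAP1, scaffolds of the postsynaptic density, with 3.69 and 3.95 and with 2.19 and 4.48 summits per 100 kb. The ankyrin genes ANK2 and ANK3 had 2.95 and 7.37 and 4.24 and 7.92, CADPS2, a factor of vesicle release, 5.46 in both lists, and NAV3 3.90 and 5.93. These genes were picked after their values were seen, and genes of this kind outside the lists were not counted in full.

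No summit was listed in 6 genes. They were IQCJ-SCHIP1, the netrin receptor UNC5D, ENTREP2, PTPRK, the semaphorin SEMA5A and AFF2. IQCJ-SCHIP1 is a readthrough gene of which 0.838% of the bases lay in no shorter gene, and 31 summits of each list fell within its bounds but belonged to shorter genes. Over all 315 genes the median share of own bases was 94.6%, and it was under 50% in 6 genes. One of these was GPHN, which codes for the scaffold gephyrin. It had 67 and 115 summits of its own and 162 and 276 within its bounds.

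The genes nearest to the length limit are given without a comparison. Just above it, AFF2 had 0 and 0 summits, PPP2R2B 0 and 1, and PPFIA2 2 and 2. Just below it, DIAPH3 had 39 and 82, CPQ 1 and 3, and ITPR2 29 and 49.

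Most peaks in very long genes were flat, that is 30 bases wide with the summit in the middle. In the RPL22 list 4225 of 5011 were flat, 84.3% (83.3 to 85.3%), and in the RPL22L1 list 7086 of 7770, 91.2% (90.5 to 91.8%). Over all peaks the shares were 64.9% and 77.9%, and in protein-coding genes under 500 kb 60.2% and 75.7%. Those of 200 to 500 kb, the next shorter class, lay between with 75.7% and 85.7%. The score of a peak is the authors' own value and was compared within a list only. The median score in very long genes was 33 for RPL22 peaks and 132 for RPL22L1 peaks, close to the 33 and 122 of shorter genes. The difference in flat share was present at like scores. For RPL22 scores from 50 to below 100, 48.7% were flat in very long genes, 34.8% at 200 to 500 kb and 22.7% in all shorter ones. From 100 to below 300 the shares were 13.8% (9.91 to 18.5%), 8.53% and 3.88%. For RPL22L1 scores of 300 or more they were 64.3% (60.5 to 68.0%), 47.3% and 29.4%. In the RPL22 list 49.5% of the flat peaks in very long genes held a single score, 21. At 200 to 500 kb 46.1% did, and in all shorter genes 40.9%. Wide peaks were few, with 3.55% and 3.36% at 50 bases or more against 11.9% and 10.9% in shorter genes. Genes of 200 to 500 kb had 6.29% and 6.41%.

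The lists rarely met at the same bases in very long genes. In the RPL22 list 362 peaks shared at least 1 base with an RPL22L1 peak, 7.22% (6.52 to 7.98%), against 17.4% of all peaks and 19.8% of those in shorter protein-coding genes. In the RPL22L1 list 362 did so, 4.66% (4.20 to 5.15%), against 10.6% and 11.8%. At 200 to 500 kb the shares lay between, at 12.1% and 7.46%. Peaks that were not flat overlapped in 28.6% (25.5 to 31.9%) and 20.3% (17.4 to 23.5%), below the 40.1% and 26.6% of shorter genes. At 200 to 500 kb they did so in 34.8% and 23.6%, the latter only just above the RPL22L1 interval. Flat peaks overlapped in 3.24% and 3.15%, against 4.81% and 4.77% at 200 to 500 kb and 6.36% and 7.0% in all shorter genes. At RPL22 scores from 100 to below 300 the share was 37.3% (31.5 to 43.4%) against 44.2% at 200 to 500 kb and 50.3% in all shorter genes. At RPL22L1 scores of 300 or more it was 15.2% (12.6 to 18.2%) against 22.2% and 33.1%. These ranges mix flat and other peaks. Among those not flat the shares were 43.3% (36.8 to 49.9%) against 47.0% and 51.6%, and 31.5% (25.5 to 37.9%) against 36.4% and 42.5%. RPL22 peaks not flat at 300 or more overlapped in 67.9% (47.6 to 84.1%) against 66.9% and 74.5%. Each of these intervals for peaks not flat held the value at 200 to 500 kb. At RPL22 scores from 50 to below 100 it did not, with 22.3% (17.9 to 27.2%) against 30.1%. Peaks also covered less of the very long genes, 0.0607% and 0.0939% of their bases against 0.414% and 0.692% in shorter genes. The part of this smaller coverage in the lower overlap was not tested.

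The 362 overlapping pairs lay in 113 genes. Both peaks were flat in 112 pairs and neither was in 117. In 28 pairs the peaks held exactly the same bases.

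Summits of the lists lay farther apart, in genes where summits of each list were sparser. The nearest summit of the other list lay at a median of 2302 bases from an RPL22 summit and 3297 bases from an RPL22L1 summit in very long genes. At 200 to 500 kb the medians were 1126 and 1758, and in all shorter genes 516 and 1054. A summit of the other list lay within 1000 bases for 34.0% and 25.5%, against 47.6% and 37.3% at 200 to 500 kb and 62.5% and 48.8% in all shorter genes. Lower density alone lengthens such distances, so they are no separate result, and its part was not tested. Within 50 bases, RPL22 peaks that were not flat had a summit of the other list in 29.8% (26.6 to 33.1%) and flat ones in 4.33% (3.74 to 4.99%). Among RPL22L1 peaks it was 19.4% (16.5 to 22.6%) of those not flat and 4.01% (3.56 to 4.49%) of flat ones.

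**Figure D3:**
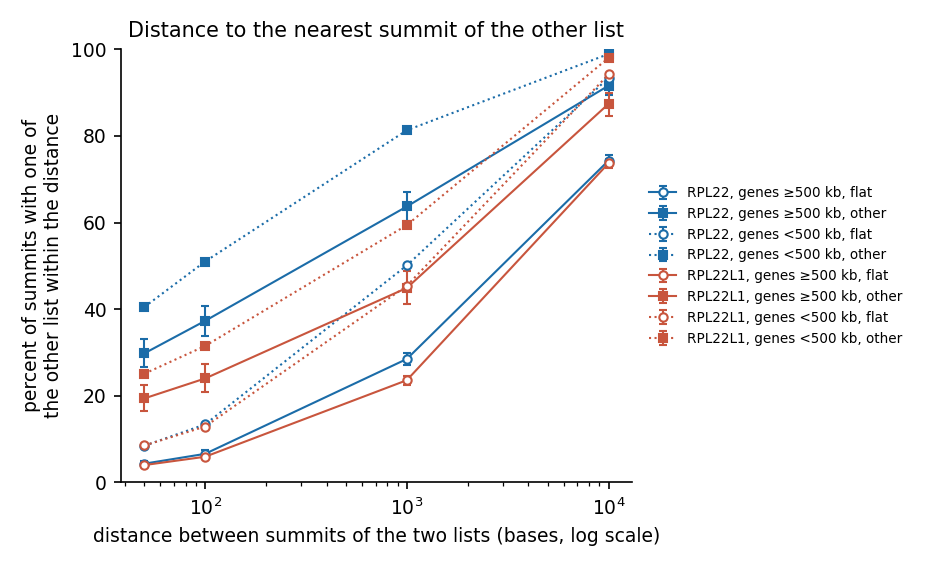
Percent of summits with a summit of the other list within 50, 100, 1000 and 10000 bases (logarithmic axis), with exact 95% intervals. Solid lines are very long genes and dotted lines shorter protein-coding genes, open circles flat peaks and filled squares other peaks. In very long genes 29.8 and 19.4% of the other peaks but only 4.33 and 4.01% of flat peaks had a summit of the other list within 50 bases.

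The 3 highest-scoring RPL22 peaks in very long genes lay in SUGCT, MYT1L and PRKG1, which had 14, 2 and 14 RPL22 summits. The neuronal zinc finger gene MYT1L had 2 summits in each list, yet its peak at chr2:2073972-2074004 ranked 120 among RPL22 peaks and 236 among RPL22L1 peaks, on the same bases. In PRKG1, which codes for a cyclic GMP dependent kinase, the peak at chr10:51190617-51190646 was flat in the RPL22 list and ranked 259 and 250. In SUGCT, a mitochondrial CoA transferase, the peak at chr7:41012183-41012213 ranked 112 and 669, again on the same bases. GPHN had a shared peak from chr14:67698926 that ranked 845 and 338. The shared SEMA3A peak, chr7:83977125-83977183 in the RPL22 list, ranked 1762 and 987. Among the first 1000 ranks 9 RPL22 peaks lay in very long genes, of which 7 overlapped the other list, and 13 RPL22L1 peaks, of which 5 did. In shorter protein-coding genes 355 of 457 and 253 of 421 did, and in those of 200 to 500 kb 29 of 40 and 22 of 39.

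Other high peaks were seen in 1 list. In the RPL22 list the DOCK1 peak at chr10:126977821-126977850 ranked 351, with the nearest RPL22L1 summit 104 bases away, and one in RABGAP1L, a regulator of Rab proteins, ranked 780, with the nearest 128 bases away. In the RPL22L1 list the BCAS3 peak at chr17:60748947-60748978 ranked 248, with the nearest RPL22 summit 6481 bases away. The DNM3 peak, in a dynamin gene, ranked 301, with the nearest 44731 bases away. Peaks in UTRN and the receptor phosphatase PTPRT ranked 492 and 607, and the nearest RPL22 summits lay 2363 and 164799 bases away.

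Summits were spread over the whole length of these genes with more at both ends when genes were pooled. Strand was known for 263 of the 315 genes, and their span was divided into 10 equal sections. The first section held 14.3% (13.2 to 15.4%) of RPL22 summits and 14.0% (13.1 to 14.9%) of RPL22L1 summits, the last section 12.1% (11.1 to 13.2%) and 12.9% (12.1 to 13.8%), and the fewest lay in section 8, with 7.52% and 7.20%. As a mean over genes weighted equally the first section held 13.2% and 11.6% and the last 13.3% and 14.5%, so which end led depended on the weighting. In genes of 1000 kb or more the last section held 7.11% and 8.71% and the first 19.4% and 20.8% of pooled summits. IL1RAPL1 alone held 83 of these 661 RPL22 summits and 180 of the 1056 RPL22L1 summits. No mean over genes was taken there, so the lack of an excess at the end holds for the pooled summits only. Peaks that were not flat leaned to the end, with 18.4% (15.4 to 21.7%) and 22.8% (19.4 to 26.5%) in the last section and 15% and 16.0% in the first.

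**Figure D4:**
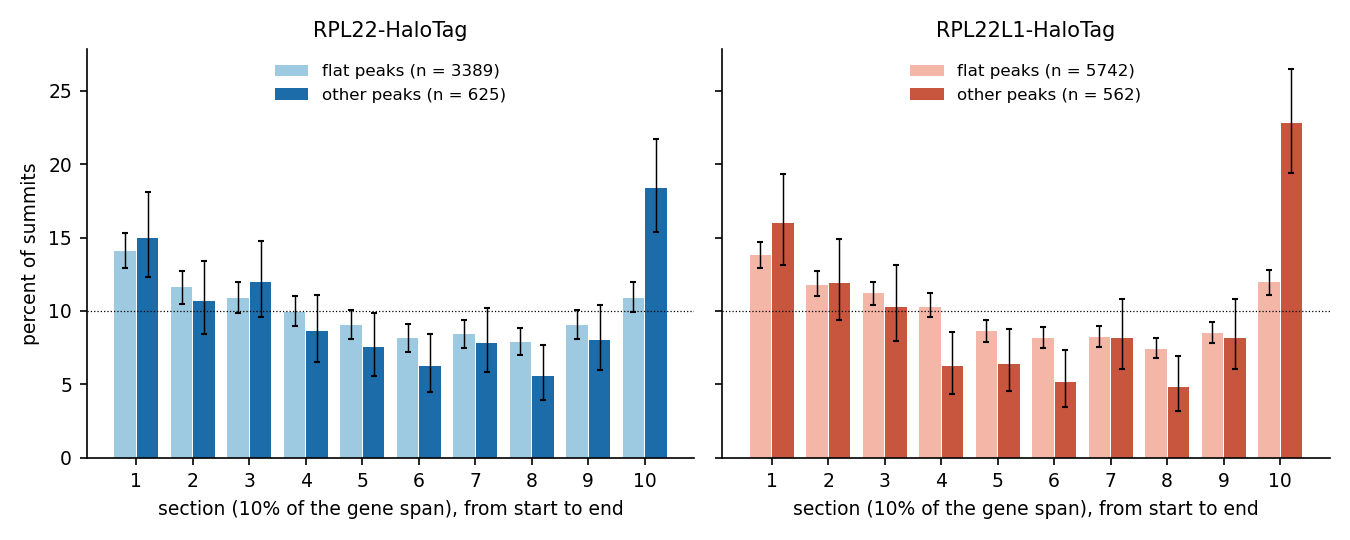
Percent of summits in each of 10 equal sections of the gene span, from the start to the end of the gene, for flat peaks and other peaks in the 263 very long genes with a known strand, with exact 95% intervals and a dotted line at an even spread of 10%. Peaks that were not flat reached 18.4% of RPL22 summits and 22.8% of RPL22L1 summits in the last section.

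The rise was sharper close to the ends. Within 10 kb of the end there were 5.10 RPL22 summits per 100 kb and 10.2 RPL22L1 summits, against 1.75 and 2.74 in the interior. Within 10 kb of the start there were 4.83 and 6.65. For peaks that were not flat the densities were 1.52 and 2.24 at the end, 1.18 and 0.722 at the start and 0.258 and 0.226 in the interior. Exons were not known, so summits could not be split into exon and intron.

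Single genes departed from this pattern. Among genes that held 20 or more summits of a list the part before the midpoint of the gene held a median of 57.1% of RPL22 summits over 68 genes and 58.6% of RPL22L1 summits over 83 genes. It held more than 50% in 41 and 51 of them. In the RPL22 list the share ran from 6.67% in PDE4B to 96.2% in TASP1, a protease that cleaves a histone methyltransferase. In the RPL22L1 list it ran from 0% in CAST, the calpain inhibitor, of which 14.6% of the bases lay in no shorter gene, to 98.4% in RPS6KC1.

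Several dense genes had long stretches without a summit of either list. Over the 78 genes where both lists together had 50 summits or more, the longest such stretch took a median of 10.8% of the gene. In SEMA3A it was 186 kb at the high-coordinate end, chr7:84306530-84492725, and the remaining 351 kb held 14.8 and 45.9 summits per 100 kb. In SYT1 it was 199 kb, chr12:78905019-79104087, with 13.4 and 27.0 per 100 kb outside it. In IL1RAPL1 a stretch of 253 kb, chrX:29662338-29915730, was empty, and in GPHN one of 264 kb, chr14:67072441-67336192. The longest was 697 kb in TENM3, 51.4% of the gene. Summits of both lists were pooled to find these stretches, and summits given to shorter genes inside a stretch were not counted.

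**Figure D5:**
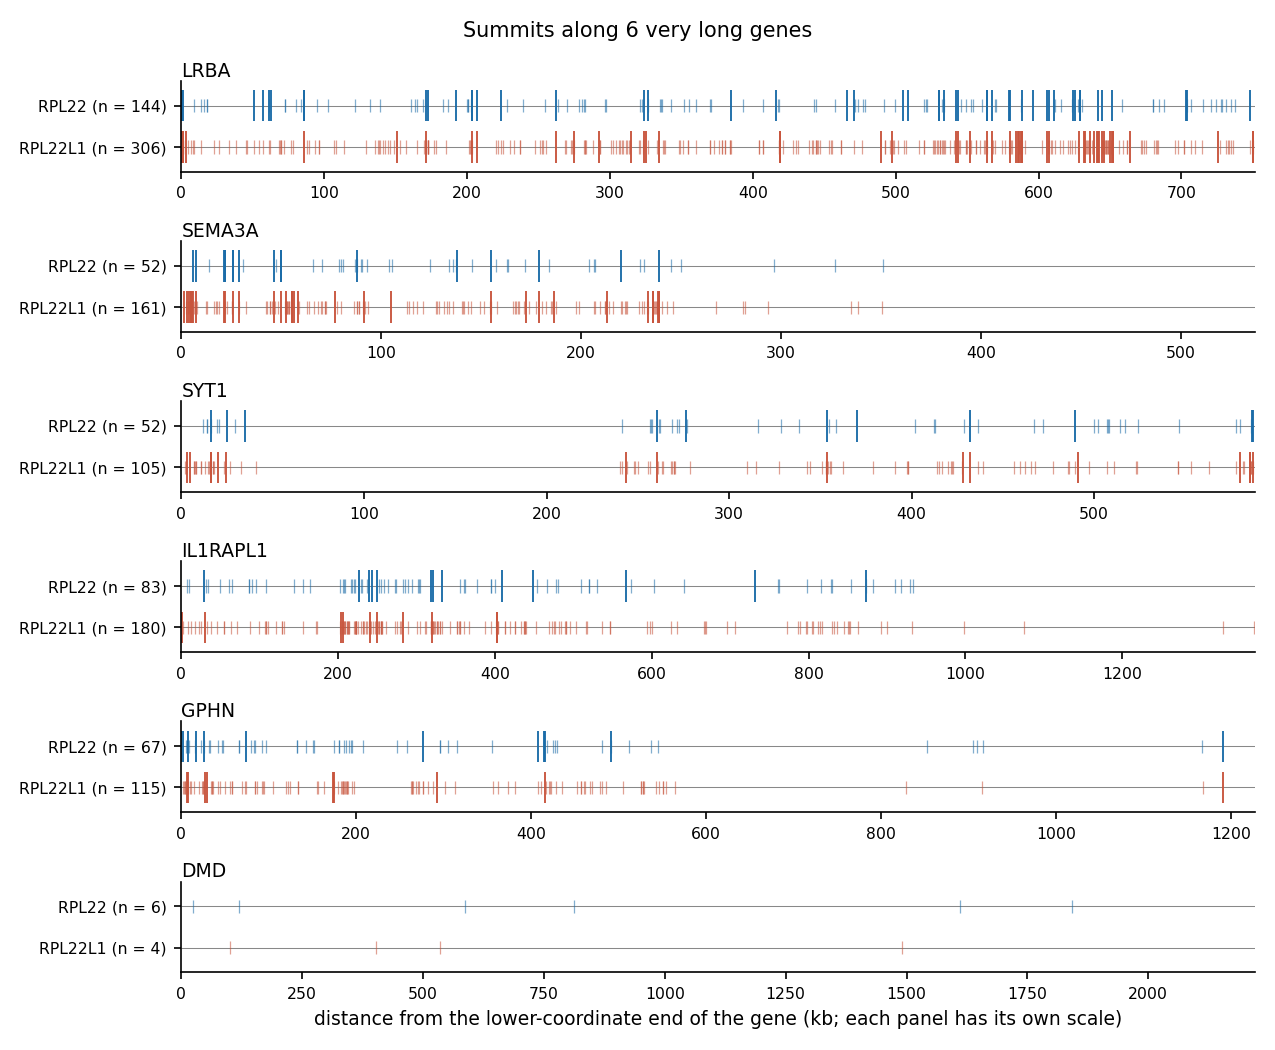
Summits along LRBA, SEMA3A, SYT1, IL1RAPL1, GPHN and DMD, by distance in kb from the lower-coordinate end of the gene, with short ticks for flat peaks, tall ticks for other peaks and a scale of its own for each gene. Summits ran along the whole of LRBA (144 and 306), left 186 kb of SEMA3A and 199 kb of SYT1 empty in both lists, and were few in DMD (6 and 4), which codes for dystrophin. Summits given to shorter genes are not drawn, and 61.5% of the bases of SYT1 lay in no shorter gene.

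The lists were then set against each other gene by gene. The RPL22L1 list held 1.55 times as many peaks in very long genes as the RPL22 list, 1.68 times as many flat peaks and 0.870 times as many others. Over all peaks these ratios were 1.65, 1.98 and 1.04. For the comparison by gene the RPL22L1 list was reduced by score to 154000 peaks, which left 4872 in very long genes against 5011. Among the 145 genes where the lists of equal size together had 10 summits or more, the median log2 ratio of summit number plus 1, RPL22L1 over RPL22, was -0.09, with quartiles of -0.37 and 0.26. It passed 1 in 3 genes, 2.07% (0.429 to 5.93%), against 6.76% of all genes, and lay below -1 in 5 genes, 3.45% (1.13 to 7.86%), against 8.63%. The balance turned with the setting, to 5 above and 1 below among 115 genes with the peaks from the median score of each list up. In the whole lists it was 30 and 1 among 171 genes, where the RPL22L1 list is the longer, 254413 against 154000 peaks. No share over all genes was taken at these settings, so these counts show no preference of the very long genes. The median over all 7929 genes was 0.00.

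The 3 genes past a ratio of 1 rested on few summits. The receptor phosphatase PTPRD had 3 RPL22 and 9 RPL22L1 summits in lists of equal size, a log2 ratio of 1.32, and the secreted protein gene TAFA2 likewise 3 and 9. With peaks from the median score up the TAFA2 ratio was 0.00. SLC44A5, a choline transporter-like gene, had 5 and 12, a ratio of 1.12. The photoreceptor gene EYS and TASP1 followed at 0.83 and 0.77, TASP1 with 26 and 45 summits. In the other direction the glutamate receptor GRM8 and the proteoglycan SPOCK3 each had 8 and 2, a ratio of -1.58. RIMS2, a protein of the presynaptic active zone, had 12 and 4, a ratio of -1.38, and ATRNL1 had 8 and 3, a ratio of -1.17. GSE1 rested on larger numbers, 55 and 22, a ratio of -1.28. With flat peaks left out its ratio was -0.17, and in the whole lists, with 55 and 44 summits, -0.32. Of the other 4 below -1, in the whole lists SPOCK3 stayed there at -1.17, and GRM8, RIMS2 and ATRNL1 were at -0.85, -0.53 and -0.36. Without flat peaks none of the 8 genes past 1 or -1 passed that limit. Only GSE1, with 8 and 7 such peaks, had enough of them for this check. The others had at most 2 in either list, fewer than the summits asked of a gene for a ratio, so it could not decide on them.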

How the data were processed

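GoldCLIP-seq was run in 3 samples of HCT116 cells, of which the peak lists of RPL22-HaloTag and RPL22L1-HaloTag, 1 library each, were used. Groups came from the genotype in the labels. The submitters' processing notes name cutadapt 4.8, STAR 2.7.10a, UMI-tools 1.1.5, MACS3 3.0.0a6 and the build hg38, without roles. Each list, deposited by the authors per library, gave positions, a summit offset and a whole-number score per peak. What the score is relative to, the control, the strand and the number of reads are not given in the sources used here, so depth is unknown. Scores only ranked and filtered peaks within a list. The peak names hold the term qpois, per the file headers and rows.

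Positions are counted from 1 on GRCh38. A summit was given to the shortest RefSeq gene (GRCh38.p14) holding it, and strand came from the RefSeq promoter table (263 of 315 genes). Density counts a gene's own summits over its whole span. Overlap meant at least 1 shared base. Flat peaks were 30 bases wide with an offset of 15. The RPL22L1 list was reduced to equal size by keeping scores above 98 and 4029 of the 9182 peaks at 98, evenly spaced by position. Genes named were, in each list, the 5 with most summits, with most peaks that were not flat per 100 kb and with the highest score, the 5 with the largest ratio in each direction, the 5 longest without a summit, the 3 nearest the limit on each side and the 2 with most summits in each gene list. Other genes were chosen after their values were seen, among them SYT1, SHANK2, DLGAP1, ANK2, ANK3, CADPS2, NAV3, DMD, CAST, RPS6KC1, KLF12, CDKAL1 and DLG2. The members and lists were chosen with earlier results of these data known. Computations used pandas 2.3.3, scipy 1.17.1, numpy 2.4.6 and matplotlib 3.10.9 under Python 3.11.15. The code for gene assignment and nearest distance was checked by direct search, and that for overlap with planted intervals. No p-value or SD is given, since each group had 1 library. Alternatives covered gene length, gene assignment, score, flat peaks, list size, overlap and weighting. A peak of 1 further gene is not reported here.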

Additional observations from a re-analysis of the deposited data

How the results depend on the processing

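With genes of 300 kb or more, median density was 1.17 and 1.55 per 100 kb in the RPL22 and RPL22L1 lists, flat shares 80.6% and 88.8%, overlap 9.07% and 5.78%, and shares in the first of 10 sections of the gene 12.6% and 12.5%. The RPL22L1 share of genes with a summit was then 93.4%, its last-section share 13.8%, and 5 genes passed a log2 ratio of 1 and 12 lay below -1. With genes of 1000 kb or more, the RPL22 median was 0.359, and 100% of genes had a summit in both lists. There flat shares were 87.8% and 93.0%, overlap 6.4% and 4.08%, first sections 19.4% and 20.8%, last sections 7.11% and 8.71%, and the ratio calls 1 and 0. Counting a summit in every protein-coding gene that holds it gave flat shares of 83.1% and 90.2%, an RPL22 overlap of 8.0% and last sections of 13.2% and 14.0%. The upper-scoring peaks, from the median score of each list up, gave medians of 0.335 and 0.398, genes with a summit of 86.3% and 86.7%, flat shares of 71.7% and 87.2%, overlap of 8.32% and 5.47%, an RPL22 last section of 13.2%, an RPL22L1 first section of 13.1% and ratio calls of 5 and 1. Dense synaptic genes of the RPL22L1 list then numbered 1, and dense channel genes of the RPL22 list 0. With flat peaks left out of both lists, medians were 0 and 0, genes with a summit 45.4% and 47.3% and overlap 14.9% and 16.7%. That overlap counts only partners that were not flat, whereas the 28.6% and 20.3% given above allowed any partner. Last sections were 18.4% and 22.8%, the RPL22L1 first section 16.0% and ratio calls 1 and 1. Dense genes were then 3 and 4 in the widely expressed list, and 0 and 0 in each of the synaptic and channel lists. With the RPL22L1 list reduced to equal size, overlap was 5.73% and 5.83%, its genes with a summit 89.2%, its flat share 88.4% and its dense synaptic genes 1. When 50% of both peaks had to overlap, shares were 4.21% and 2.72%. Weighting genes equally gave last sections of 13.3% and 14.5% and an RPL22L1 first section of 11.6%. Whole lists, in which RPL22L1 peaks are more numerous, gave ratio calls of 30 and 1 among 171 genes. The other ratio calls here were among 406 genes from 300 kb up, 31 from 1000 kb up, 115 with upper-scoring peaks and 44 without flat peaks. No share over all genes was taken at these settings. With a limit of 1 summit per 100 kb, 2 and 4 synaptic and 2 and 3 channel genes were dense, and with a limit of 5, 1 RPL22L1 synaptic gene and 0 and 0 channel genes were. This limit, like the treatment of tied peaks, was varied after the data were seen. Of these comparisons' values 80 moved beyond their counting interval or by more than 1.5-fold, and 44 did not. The balance of ratio calls and the section that led, first or last, turned under some of these settings, as the values show. The cause was not tested.

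No paired analysis was possible because each group had 1 library and the labels give no replicate numbers. Without replicates the spread between cultures is unknown. Read depth is unknown too, and it cannot be told apart from the fusion as a source of the longer RPL22L1 list. No value of the HaloTag-only library was used.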
